A study of Mus musculus with 81 samples.

Results

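Heart pools with high Irf7 were compared with heart pools with low Irf7. Irf7 encodes a transcription factor of the interferon response, and its level served as a marker of how strongly that response was running in a heart. Arrays were ranked within each diet by the Irf7 probe set. The 8 highest on chow and the 8 highest on high fat formed the high Irf7 pools, and the 8 lowest of each diet formed the low Irf7 pools. This selected 32 of 81 arrays, 16 in each group, and left 49 arrays in neither group, of which 26 were on chow and 23 on high fat.

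Type I interferons bind a receptor on nearly every cell, and the kinases behind it activate a transcription factor complex that contains STAT2 and IRF9. That complex binds interferon-stimulated response elements in the promoters of antiviral genes. IRF7 is itself a product of this pathway, and once activated it drives further interferon transcription, so its transcript is widely used as a reporter of tonic or acute interferon signalling. In heart the response can come from cardiomyocytes, endothelium, fibroblasts and resident macrophages.

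The high Irf7 pools on chow were BXD80, BXD56, BXD49, BXD62, BXD101, BXD45, BXD64 and BXD73, and those on high fat were BXD101, BXD70, BXD103, BXD45, BXD49, BXD62, BXD80 and BXD50. The low Irf7 pools on chow were BXD63, BXD75, BXD55, BXD65, BXD71, BXD87, BXD84 and BXD48, and those on high fat were BXD63, BXD84, BXD100, BXD95, BXD87, BXD75, BXD97 and BXD68. All belong to the BXD family of recombinant inbred strains from C57BL/6J and DBA/2J. Every pool combined equal amounts of RNA from whole hearts of about 5 males, which were 29 weeks old and had fasted overnight. Diet and strain come from the sample labels. The shared protocol text speaks of chow only and does not say what the high fat food contained. A strain and diet has 1 array, so the spread among animals of a pool is not seen, and a p-value measures the spread between these pools. The 16 high Irf7 pools come from 11 strains and the 16 low Irf7 pools from 12, and the fit treats both pools of a strain as independent. In bulk tissue, fewer cells of a type and less RNA per cell cannot be told apart. Values are the deposited scores, on a scale where the average of each array is 8 and the SD 2. Differences are in these units, with no fold since the base of the scale is not stated.

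The members were chosen by the Irf7 level itself, so its levels in the groups are a description with no test. It had a lowest, median and highest value of 9.44, 9.86 and 10.6 units in the high Irf7 pools and of 8.32, 8.64 and 9.07 units in the low Irf7 pools, with means of 9.85 ± 0.33 and 8.68 ± 0.21 (SD, n = 16 each). On chow the last array inside the high group, BXD73, had 9.44 units and the nearest outside, BXD103, had 9.43. The last inside the low group on chow, BXD48, had 8.74 and the nearest outside, BXD66, had 8.77. On high fat BXD50 closed the high group at 9.80 units, beside 9.73 in BXD85, and BXD68 closed the low group at 9.07, beside 9.08 in BXD65. The boundaries therefore fall within a continuous range, with the widest step of these 4 at the upper end on high fat. C57BL/6J had 9.51 units on high fat and 9.26 on chow, and DBA/2J had 9.24 on high fat and 8.99 on chow, so both parents lay in neither group.

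**Figure D1:**
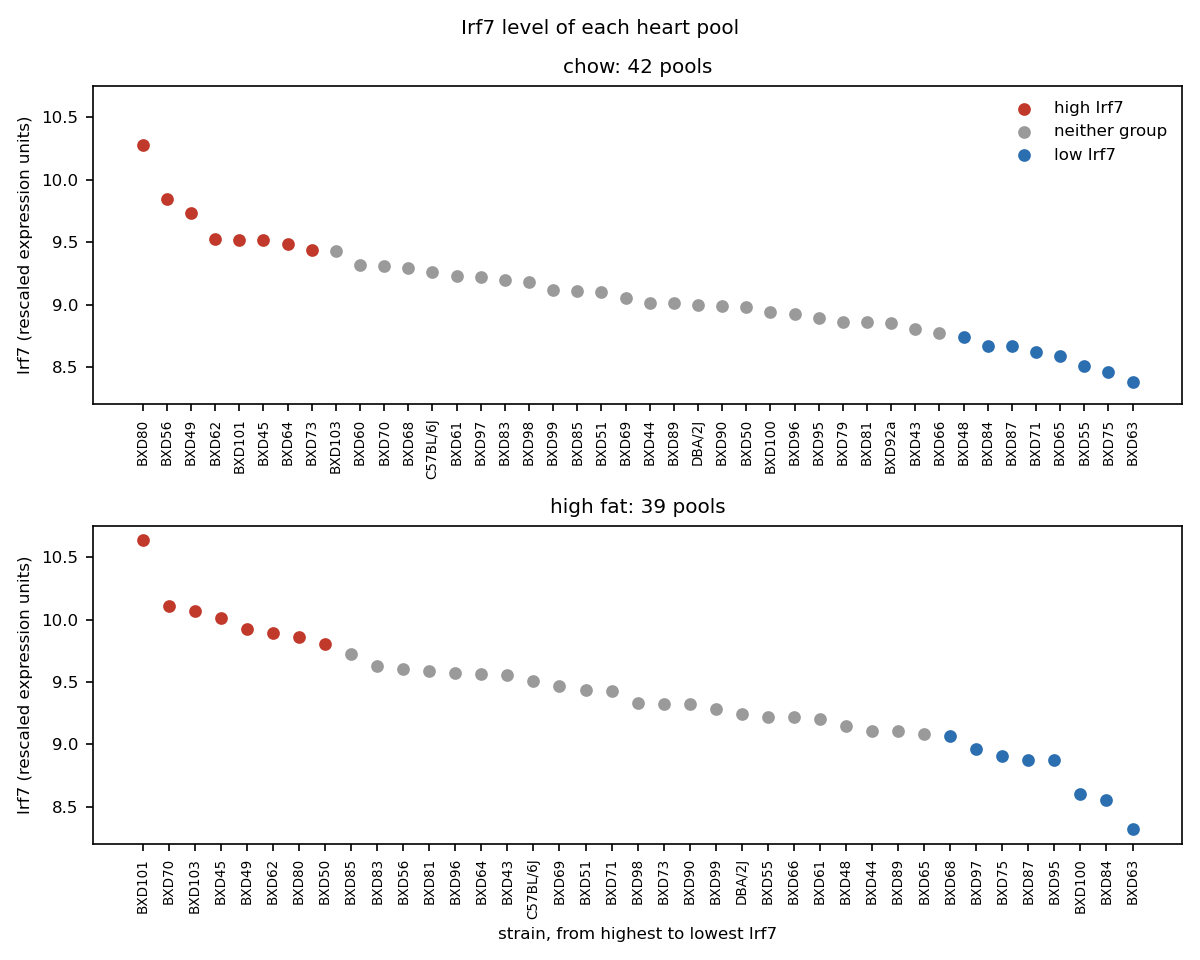
Irf7 level of each heart pool in rescaled expression units, with strains ordered from highest to lowest on chow (upper panel, 42 pools) and on high fat (lower panel, 39 pools). Red points are the 8 high Irf7 pools and blue points the 8 low Irf7 pools of each diet, and grey points are in neither group. The values run from 10.3 to 8.38 units on chow and from 10.6 to 8.32 on high fat without a gap at the group limits.

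The letters of interferon-stimulated response elements were searched in promoters, and matches are shown for called targets. No binding was measured, and a match is only a description. A promoter is the window from 250 bases before to 50 after a gene's start in RefSeq sequences of the GRCm38.p6 build. The search used the letters GAAANNGAAA on either strand. These can overlap TTCNNNGAA, the letters used for gamma-activated sites. At least 1 match was present in 40% of the 40 type I interferon targets with a promoter entry (16 genes), against 3.99% of all 27025 genes of the table. It was present in 7 of 21 targets called higher in the high Irf7 pools and in 9 of 19 targets not called. TTCNNNGAA was present in 7 of the 40 targets (17.5%), against 9.55% of all genes. The matches of 5 of the 7 called targets are printed 5′ to 3′ along the gene, with 15 bases on each side and the matching letters in capitals. A match on the opposite strand reads as its reverse complement. These genes were picked after their values were seen.
Ifit1 (chr19:34640770-34640828, plus strand): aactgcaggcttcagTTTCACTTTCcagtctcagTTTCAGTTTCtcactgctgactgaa
Oas1g (chr5:120887601-120887646, minus strand): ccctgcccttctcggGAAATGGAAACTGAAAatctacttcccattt
Phf11b (chr14:59341356-59341395, minus strand): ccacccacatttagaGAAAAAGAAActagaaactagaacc
Bst2 (chr8:71537572-71537617, minus strand): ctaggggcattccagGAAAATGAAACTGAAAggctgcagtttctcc
Ddx60 (chr8:61928019-61928092, plus strand): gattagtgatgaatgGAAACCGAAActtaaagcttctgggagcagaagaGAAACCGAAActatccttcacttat
Ifit1 carries both matches within 104 bases before its start, and those of Oas1g and Bst2 overlap. Those of Eif2ak2 and Lgals9, of which at least 1 begins after the gene's start, are not printed. Irf7 itself has no match of these letters in its window, which says only that they are absent there. The 250 bases before its start are shown as the gene that chose the groups.
Irf7 (chr7:141266425-141266674, minus strand): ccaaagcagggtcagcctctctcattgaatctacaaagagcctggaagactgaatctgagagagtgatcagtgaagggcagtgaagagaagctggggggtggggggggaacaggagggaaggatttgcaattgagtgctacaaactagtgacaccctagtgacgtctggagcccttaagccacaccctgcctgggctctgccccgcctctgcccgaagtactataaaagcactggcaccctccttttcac

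Many of the genes that were higher in the high Irf7 pools were interferon-stimulated genes. Of 22179 genes tested with diet in the model, 81 were higher (0.365%) and 3 were lower (0.0135%) at an adjusted p under 0.05, and 1787 had an unadjusted p under 0.05. Of the type I interferon targets, 49 of 53 listed genes were measured, 26 were called higher and none lower, against 0.365% of all genes. All 49 had a positive difference, including the 23 that were not called, against 55.7% of all genes tested. The median difference was 0.35 units over the targets and 0.01 over all genes. The mean over the 49 targets lay between 9.32 and 9.87 units in the high Irf7 pools and between 8.94 and 9.29 in the low Irf7 pools, with no overlap. Some pools in neither group lay inside the high range. On high fat, BXD85 of neither group had 9.58 units, above the high pool BXD50 at 9.33. The median difference of the targets was 0.38 units on high fat alone and 0.27 on chow alone.

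A brake of the pathway had the smallest p of the targets. Usp18 encodes the protease that removes the ubiquitin-like protein ISG15 and also binds the interferon receptor to dampen it. Its lowest, median and highest values were 9.46, 9.89 and 10.6 units in the high Irf7 pools and 8.22, 8.99 and 9.34 units in the low Irf7 pools, a difference of 0.99 ± 0.10 (SE, adjusted p = 2.57e-07). The groups did not overlap on either diet. Ifit1, which binds foreign RNA lacking the host's cap methylation, had 9.53, 10.05 and 10.8 units in the high Irf7 pools and 8.21, 9.09 and 9.57 units in the low Irf7 pools (difference 1.01 ± 0.12, adjusted p = 2.54e-06). Its groups were separate within each diet, although the highest low pool on high fat passed the lowest high pool on chow. Ifit2, of the same family, differed by 0.59 ± 0.09 (adjusted p = 0.000162).

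The oligoadenylate synthetases sense double-stranded RNA and make the messenger that activates RNase L. Oas1g differed by 1.47 ± 0.18 units (adjusted p = 2.57e-06), the largest difference of the list, and Oas2 by 0.84 ± 0.11 (adjusted p = 1.81e-05). Oas1g lay below the median gene level of 8.18 units in most pools. The groups of both genes overlapped on high fat, where Oas1g had 7.79 units in the high pool BXD80 and 7.88 in the low pool BXD97. Oasl2, a related protein, had 10.2, 10.6 and 11.1 units in the high Irf7 pools and 9.30, 9.81 and 10.2 units in the low Irf7 pools (lowest, median, highest), a difference of 0.78 ± 0.09 (adjusted p = 1.36e-06). Every high pool lay above every low pool, the closest values being 10.22 and 10.18. The genes of this family are close copies and the probes' specificity was not tested, so the split of signal between Oas1g and its neighbours is uncertain. Oas3 and Oasl1, also on the list, were not called.

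Lgals3bp, a secreted glycoprotein that binds galectins, had 11.1, 11.7 and 12.3 units in the high Irf7 pools and 10.6, 10.9 and 11.1 units in the low Irf7 pools. Its difference was 0.75 ± 0.08 (adjusted p = 8.81e-07), and the groups met without overlapping at 11.12 and 11.11. Rtp4, a receptor transporter protein induced by interferon, differed by 0.68 ± 0.10 (adjusted p = 7.85e-05). Cmpk2, a mitochondrial nucleotide kinase, differed by 0.55 ± 0.08 (adjusted p = 7.86e-05), and Herc6, the ligase that attaches ISG15 in mice, by 0.50 ± 0.07 (adjusted p = 8.99e-05). Ifi27 differed by 0.60 ± 0.10 (adjusted p = 0.000526) and Phf11b by 0.55 ± 0.08 (adjusted p = 7.24e-05). The groups overlapped for Rtp4 on both diets, for Cmpk2 and Herc6 on chow and for Phf11b on high fat. For Ifi27 they were separate within each diet, although the closest values on high fat were 10.168 in BXD50 and 10.167 in BXD87. Not all familiar targets passed. Ifit3 differed by 0.03 ± 0.08 (adjusted p = 0.972), Isg15 by 0.20 ± 0.07 (adjusted p = 0.332), Mx1 by 0.15 ± 0.07 (adjusted p = 0.565) and Rsad2 by 0.49 ± 0.15 (adjusted p = 0.201), and these examples were picked after their values were seen.

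**Figure D2:**
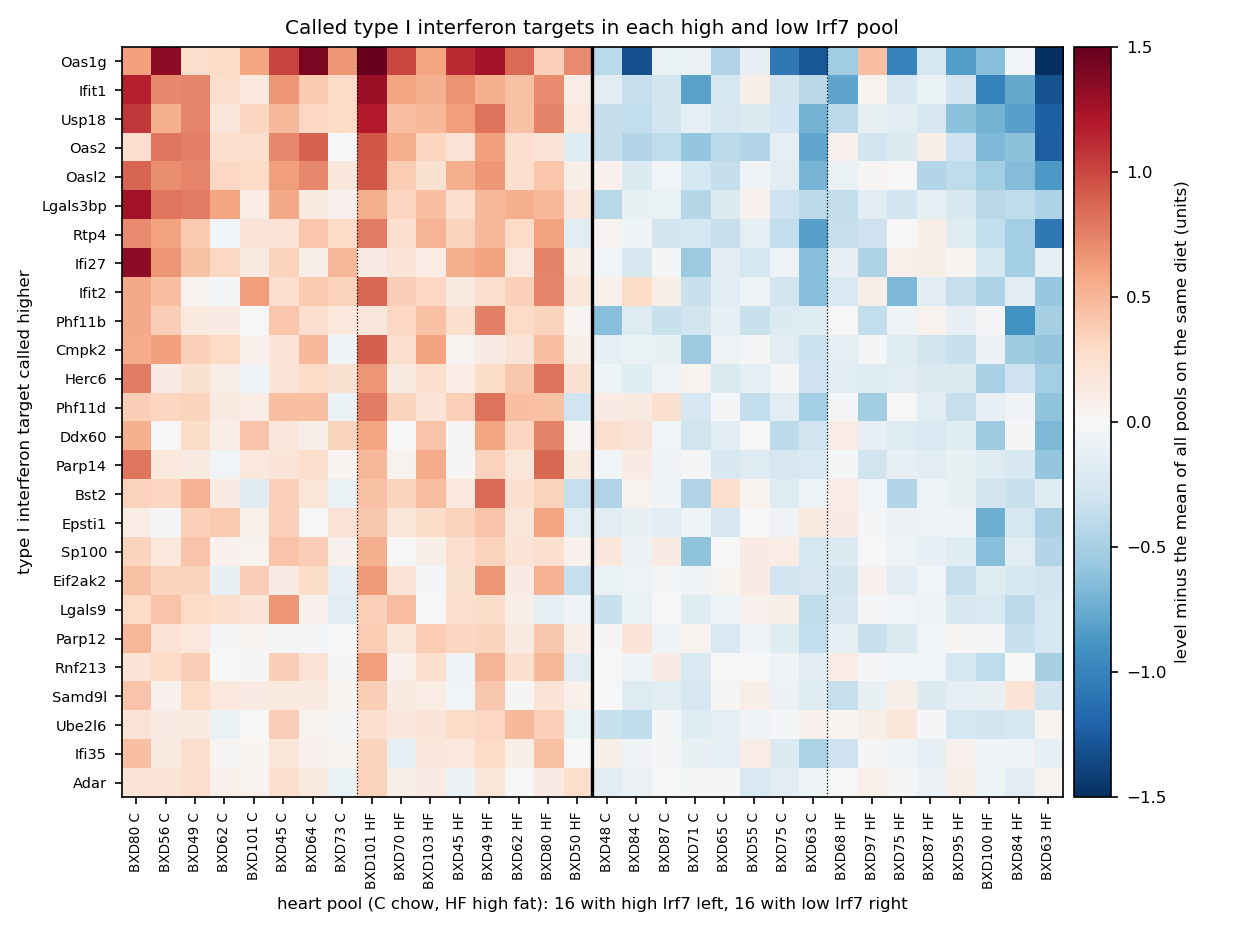
Level of the 26 called type I interferon targets in each of the 32 pools, as the difference from the mean of all pools on the same diet, in units. High Irf7 pools are left of the thick line and low Irf7 pools right of it, chow (C) before high fat (HF) in each group, and within these from highest to lowest Irf7. Colours stop at 1.5 units in either direction. The left side is mostly red and the right side mostly blue, with the weakest red in BXD50 on high fat and BXD73 on chow.

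The signalling complex moved with its targets in part. Of 11 measured genes for interferon receptors and JAK-STAT proteins, 2 were called higher, against 0.365% of all genes. Irf9, the DNA-binding part of the complex, had 9.51, 10.1 and 10.5 units in the high Irf7 pools and 9.28, 9.60 and 9.90 units in the low Irf7 pools (difference 0.55 ± 0.08, adjusted p = 0.000108). Stat2, its partner, differed by 0.43 ± 0.08 (adjusted p = 0.002). The ranges of both overlapped on each diet. The receptor subunits Ifnar1 and Ifnar2 differed by 0.09 ± 0.05 each, with adjusted p of 0.689 and 0.66, and Ifngr1 by 0.10 ± 0.04 (adjusted p = 0.497).

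Among 17 measured sensors and adaptors for nucleic acids, 3 were called higher, against 0.365% of all genes. Ifih1, the cytosolic sensor of long double-stranded RNA, had 9.77, 10.1 and 10.6 units in the high Irf7 pools and 9.05, 9.45 and 9.67 units in the low Irf7 pools. Its difference of 0.70 ± 0.07 had the smallest adjusted p of the genes named here, 7.60e-08, and no pool of one group reached the other. Zbp1, a sensor of nucleic acids in the Z conformation, differed by 0.61 ± 0.09 (adjusted p = 0.000108), and Dhx58, a regulator of such sensors, by 0.34 ± 0.06 (adjusted p = 0.00441). Tlr7, the endosomal receptor for single-stranded RNA, differed by 0.32 ± 0.08 and did not pass (adjusted p = 0.0508). The sensor Ddx58 differed by 0.23 ± 0.06 and did not pass (adjusted p = 0.053).

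None of the 16 measured interferon ligand genes was called, against 0.365% of all genes called higher. At that share almost no call is due in this list or in the shorter lists that follow. The median difference of the ligand genes was 0.06 units, and Ifnb1 differed by 0.07 ± 0.07 (adjusted p = 0.881). Ifng, the type II interferon, had 7.25, 7.56 and 8.02 units in the high Irf7 pools and 7.05, 7.44 and 7.68 units in the low Irf7 pools (difference 0.17 ± 0.07, adjusted p = 0.524). Their ranges overlapped, and 11 of the 16 lay below the median gene level of 8.18 units. Of the other IRF genes none of 5 was called, with a median difference of 0.12 units. Irf8 differed by 0.20 ± 0.08 (adjusted p = 0.505), Irf1 by 0.12 ± 0.07 (adjusted p = 0.76) and Irf3 by -0.01 ± 0.05 (adjusted p = 0.984). The list of feedback inhibitors does not hold Usp18, which is on the target list and was called. None of its 8 measured genes was called, among them Socs1 at 0.12 ± 0.06 (adjusted p = 0.617) and Socs3 at 0.15 ± 0.07 (adjusted p = 0.563).

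Of 14 measured GTPases and chemokines usually induced by interferon gamma, 5 were called higher, against 0.365% of all genes. The median difference was 0.55 units over the list and 0.01 over all genes. Iigp1, an immunity-related GTPase that attacks the vacuoles of intracellular parasites, had 10.1, 10.8 and 12.8 units in the high Irf7 pools and 9.02, 9.96 and 10.7 units in the low Irf7 pools. Its difference was 1.08 ± 0.23 (adjusted p = 0.019) with overlap on both diets. Irgm2, a regulator of these GTPases, differed by 0.97 ± 0.21 (adjusted p = 0.017). The guanylate-binding proteins Gbp7, Gbp3 and Gbp5 differed by 0.65 ± 0.13, 0.62 ± 0.14 and 0.40 ± 0.09, with adjusted p of 0.00986, 0.0307 and 0.0406. With 1 array left out, Gbp5 no longer passed in 18 of 32 fits and Gbp3 in 6 of 32. They belong to a family of close copies, of which Gbp9 had a negative difference of -0.37 ± 0.18 (adjusted p = 0.634).

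Of 15 measured class I antigen presentation genes only Tap1, the peptide transporter of the endoplasmic reticulum, was called higher (0.53 ± 0.12, adjusted p = 0.0383), against 0.365% of all genes, and 14 had a positive difference. Tap1 no longer passed in 18 of 32 fits with 1 array left out. B2m, the light chain of class I molecules, differed by 0.39 ± 0.11 (adjusted p = 0.137). None of 9 class II genes was called, with H2-Aa at 0.56 ± 0.15 (adjusted p = 0.0852). In the list of NF-kB and acute inflammation genes, 1 of 15 was called higher, the monocyte chemokine Ccl7 (0.51 ± 0.11, adjusted p = 0.019). None of 8 STAT3 and metallothionein genes was called, with a median difference of 0.16 units. At the share of all genes almost no call is due in lists of this size.

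Of the 81 genes called higher, 38 were on a list of the interferon system and 43 were not. The lists are a choice, so a gene on none of them may still be induced by interferon. Those on no such list included Ly86, a partner of a Toll-like receptor relative on myeloid cells, at 0.63 ± 0.11 (adjusted p = 0.00189), and Cybb, the catalytic subunit of the phagocyte oxidase, at 0.63 ± 0.11 (adjusted p = 0.00276). Csprs, from a multicopy family next to Sp100, differed by 0.50 ± 0.10 (adjusted p = 0.00699). Siglec1, a sialic acid receptor of macrophages, was named after its values were seen and differed by 0.61 ± 0.07 (adjusted p = 9.71e-07). The 3 genes called lower were Mhrt, Fign and Mir28c. Mhrt, a long noncoding RNA from the myosin heavy chain locus, had 11.3, 11.6 and 11.9 units in the high Irf7 pools and 11.6, 11.9 and 12.2 units in the low Irf7 pools (difference -0.33 ± 0.06, adjusted p = 0.00513), with overlap. Fign, a microtubule-severing enzyme, differed by -0.26 ± 0.06 and Mir28c by -0.41 ± 0.09, both with an adjusted p of 0.0318. With strain as a random block Mhrt passed (adjusted p = 0.0124), while Fign (adjusted p = 0.0556) and Mir28c (adjusted p = 0.0553) did not.

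Of 16 measured macrophage and monocyte markers, 3 were called higher in the high Irf7 pools, against 0.365% of all genes. A positive difference was found for 15, against 55.7% of all genes, with a median of 0.22 units. Adgre1, a surface receptor that defines mouse macrophages, had 9.30, 9.90 and 10.5 units in the high Irf7 pools and 9.22, 9.44 and 9.79 units in the low Irf7 pools (0.48 ± 0.09, adjusted p = 0.00555). The complement genes C1qb and C1qc differed by 0.43 ± 0.09 and 0.33 ± 0.07, with adjusted p of 0.0181 and 0.0192. The mean over the 16 markers lay between 9.70 and 10.4 units in the high Irf7 pools and between 9.52 and 9.92 in the low Irf7 pools, so the groups overlapped.

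With the macrophage marker mean as a further covariate, an alternative chosen after the data were seen, the number of genes called fell to 9, against 84 without it, and the targets called to 7, against 26. The median difference of the targets was 0.25 units with the covariate and 0.35 without. Usp18 (0.78 ± 0.12, adjusted p = 0.00392), Ifit1 (0.84 ± 0.15, adjusted p = 0.0122), Oasl2 (0.62 ± 0.11, adjusted p = 0.0114), Lgals3bp (0.53 ± 0.09, adjusted p = 0.00917), Oas1g, Oas2 and Cmpk2 were the targets that passed. Ifih1 (0.58 ± 0.08, adjusted p = 0.00108) and Siglec1 (0.48 ± 0.08, adjusted p = 0.00917) passed as well. The part of macrophage content in the remaining calls was not tested.

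None of the other 16 cell type lists, with 2 to 12 measured genes each, had a called member, against 0.365% of all genes called higher. At that share almost no call is due in lists of this size. Cardiomyocyte markers, which define the labelled tissue, were high in every pool, and their mean over 10 genes lay between 14.8 and 15.1 units in the high Irf7 pools and between 14.7 and 15.2 in the low Irf7 pools, with a median difference of -0.06. The median difference was -0.01 over 12 endothelial and 0.03 over 10 fibroblast markers. It was 0.05 over 8 markers of plasmacytoid dendritic cells, the main producers of interferon in blood, 0.11 over 9 T cell, 0.08 over 7 B cell and 0.11 over 8 NK cell markers. The atrial markers had a median difference of 0.18 and varied most, with means between 9.23 and 13.1 units in the high Irf7 pools and between 8.87 and 13.6 in the low Irf7 pools. The adipocyte and brown fat markers had a median difference of 0.19. A positive difference was found for 1 of 10 cardiomyocyte, 5 of 12 endothelial and 8 of 10 fibroblast markers, against 55.7% of all genes. It was found for 7 of 8 atrial, 7 of 7 adipocyte and brown fat and 8 of 9 mesothelial markers. Of 92 ERCC control probe sets, and of 98 other control probe sets, 0 were called by limma, against 0.210% of all 41345 probe sets. At that share almost no call is due in sets of this size.

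**Figure D3:**
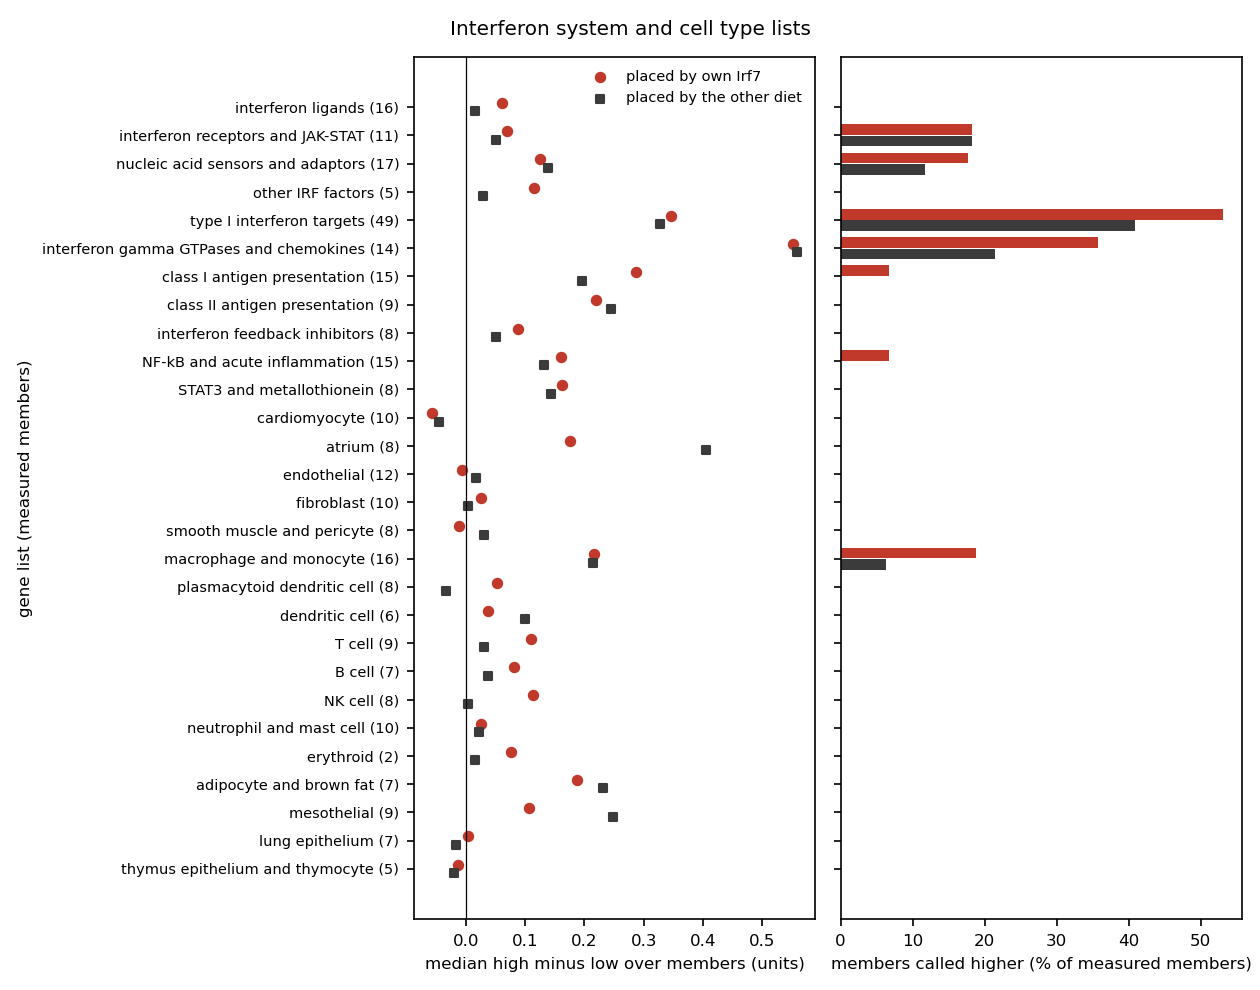
Median difference between high and low Irf7 pools (left, units) and the percentage of measured members called higher (right) for 28 gene lists, with the number of measured members in parentheses. Red marks are pools placed by their own Irf7 and dark marks are pools placed by the Irf7 of their strain on the other diet. The type I interferon targets have 53.1% and 40.8% of members called higher, the largest shares of these lists.

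Irf7 level went with the strain. Of 11 strains in the high group 5 were there on both diets (BXD101, BXD45, BXD49, BXD62 and BXD80), and of 12 in the low group 4 were (BXD63, BXD75, BXD84 and BXD87). No strain was high on one diet and low on the other. Over the 39 strains with both diets, Irf7 on chow and on high fat correlated with Pearson's r = 0.643 (permutation p = 3e-05) and Spearman's rho = 0.649 (permutation p = 1e-05, the smallest that 100000 draws can give), both two-sided. Benjamini-Hochberg adjustment over these 2 coefficients leaves the larger p at 3e-05. Without BXD80 and BXD56, the strains farthest from the median on chow, r was 0.671. Irf7 was higher on high fat than on chow in 29 of 39 strains, with a median difference of 0.33 units.

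**Figure D4:**
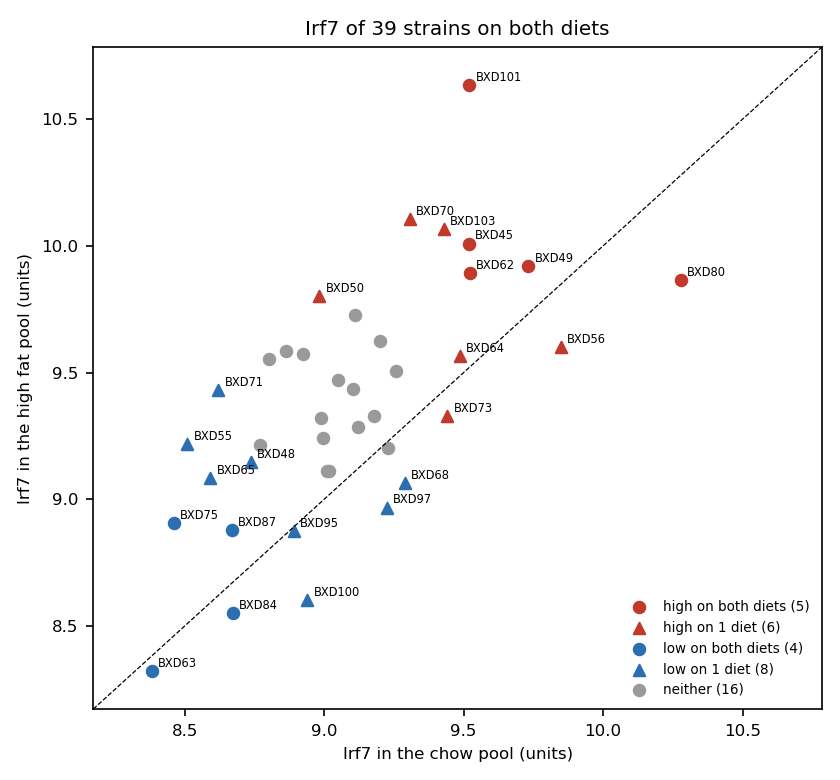
Irf7 of 39 strains in the chow pool (horizontal axis) and in the high fat pool (vertical axis), both in units, with a dashed line of equal levels. Circles are strains in the high (red) or low (blue) group on both diets, triangles are strains in a group on 1 diet, and grey points are in neither. The 5 red and 4 blue circles sit at opposite ends, and 29 strains lie above the line.

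Pools of other animals of the same strains gave a comparison in which the array's own Irf7 had no part. Each array was placed in the high or low group by the Irf7 value of its strain on the other diet, which gave 16 arrays in each group. Of these 32 arrays 18 had the same placement in the first comparison, so the comparisons share arrays. In the chow pools Irf7 had a lowest, median and highest value of 8.98, 9.52 and 10.3 units in strains high on high fat and of 8.38, 8.78 and 9.29 units in strains low on high fat, a difference of 0.72 (n = 8 each, two-sided exact permutation p = 0.00124, adjusted over both diets 0.00124). In the high fat pools it had 9.33, 9.88 and 10.6 units in strains high on chow and 8.32, 9.00 and 9.43 units in strains low on chow, a difference of 0.91 (exact p = 0.000311, adjusted 0.000622, where 0.000155 is the smallest p possible). On each diet 7 of the 8 high pools lay above the highest low pool, and the ranges overlapped. With all 22180 genes in the fit, Irf7 differed by 0.82 ± 0.12 (adjusted p = 0.000278).

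In this placement 49 genes were higher (0.221%) and 3 lower (0.0135%), Metrn, Oip5os1 and Serpina3b, and 1924 had an unadjusted p under 0.05. With strain as a random block 35 genes were higher and 0 lower in limma, and the adjusted p of the 3 lower genes were 0.0883, 0.0964 and 0.0578. Of the 49 type I interferon targets 20 were called higher, against 0.221% of all genes. All 49 had a positive difference, with a median of 0.33 units and 47.8% of all genes positive. Oasl2 differed by 0.81 ± 0.10 (adjusted p = 2.01e-05), Usp18 by 0.88 ± 0.12 (adjusted p = 6.92e-05), Ifit1 by 0.87 ± 0.12 (adjusted p = 8.56e-05), Lgals3bp by 0.66 ± 0.09 and Ifih1 by 0.65 ± 0.08 (both adjusted p = 5.21e-05). Csprs differed by 0.50 ± 0.08 (adjusted p = 0.00101) and Rtp4 by 0.63 ± 0.10 (adjusted p = 0.00106).

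Of the other lists in this placement, receptors and JAK-STAT proteins had 2 called higher (Irf9 at 0.40 ± 0.09 and Stat2 at 0.36 ± 0.08), sensors 2, interferon gamma GTPases and chemokines 3 and macrophage markers 1, Adgre1 at 0.46 ± 0.10 (adjusted p = 0.0441), against 0.221% of all genes. With 1 array left out, Irf9 no longer passed in 15 of 32 fits, Stat2 in 16 and Adgre1 in 19. No other list had a called member, and at the share of all genes almost none is due in lists of this size. The median difference of the 8 atrial markers was 0.40 units, and all 8 were positive. It was 0.25 over the mesothelial and 0.23 over the adipocyte and brown fat markers, and the part of these tissues in the differences of the targets was not tested. The total of 52 calls was 33 without BXD63 on chow and 84 without BXD50 on chow. It was 5 with the macrophage marker mean as a covariate, namely Ifih1, Ifit1, Lgals3bp, Oasl2 and Usp18. Serpina3b, Metrn and Oip5os1, all with an adjusted p of 0.0491, had differences of -0.12 ± 0.09, -0.19 ± 0.07 and -0.19 ± 0.05 between the pools placed by their own Irf7 and did not pass there.

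**Figure D5:**
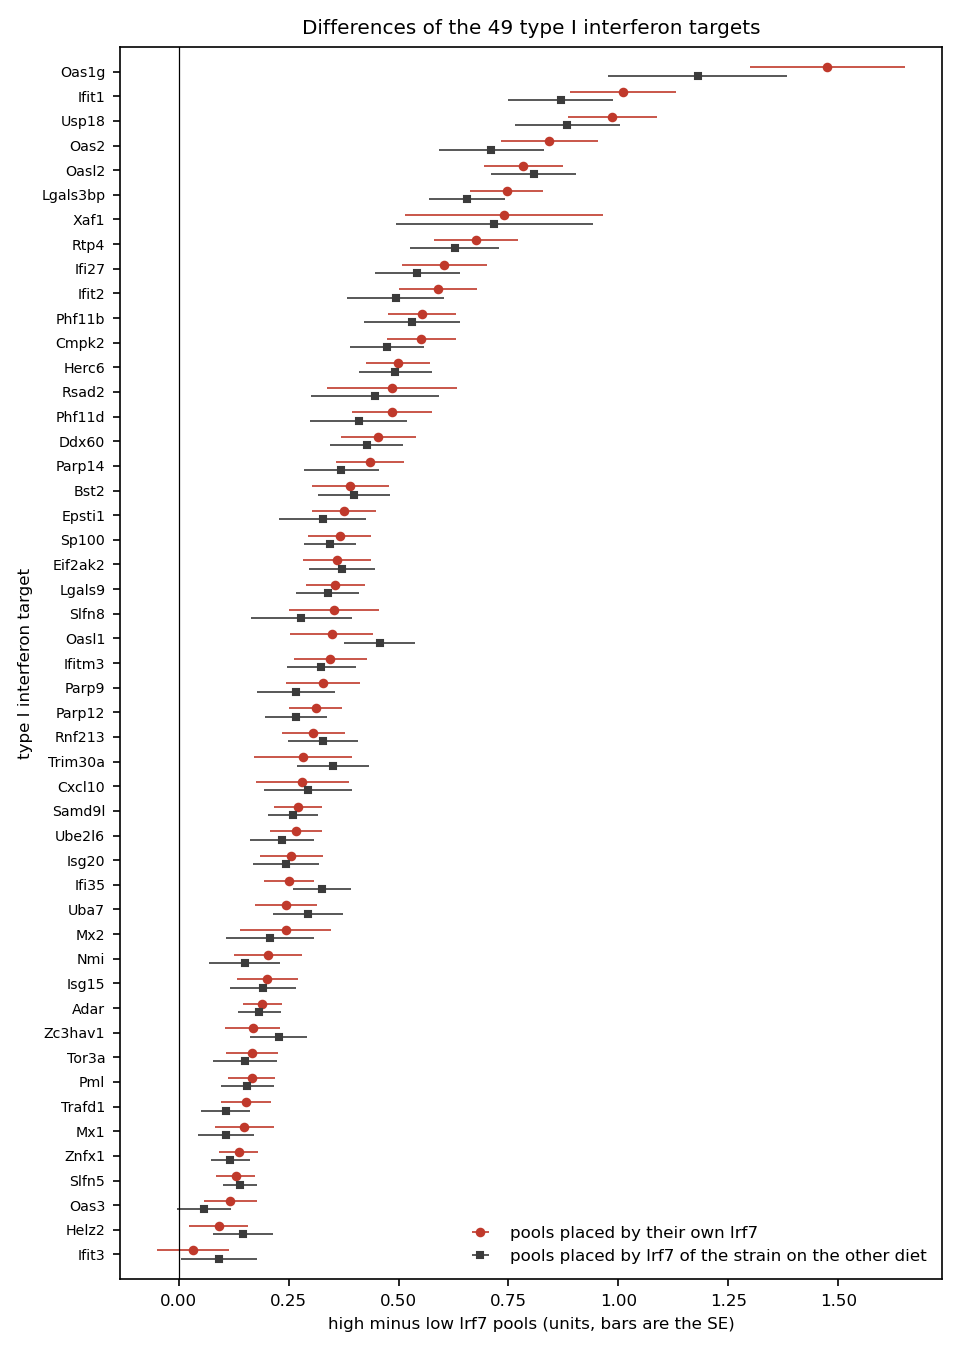
Difference between high and low Irf7 pools, in units with the SE as bars, for the 49 type I interferon targets, ordered by the first comparison. Red circles are pools placed by their own Irf7 and dark squares are pools placed by the Irf7 of their strain on the other diet, and 18 arrays have the same placement in both. All 49 points of each kind lie right of 0, from 1.47 for Oas1g to 0.03 for Ifit3 among the red circles.

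A few genes were also related to Irf7 among the pools in neither group. The first comparison does not use these 49 arrays, but some, such as BXD103 on chow, entered the placement by the other diet. Both pools of 16 strains were among them. The fit treated these pools as independent, and strain as a block was not run for the slope. The slope on Irf7 was positive and called for 4 of 22179 genes (0.018%) and negative and called for 0 (0%). In limma 1555 had an unadjusted p under 0.05. The 4 genes were all targets. Per unit of Irf7, Oasl2 changed by 1.27 ± 0.18 units (adjusted p = 4.91e-05), Ifit1 by 0.90 ± 0.16 and Lgals3bp by 0.82 ± 0.14 (both adjusted p = 0.00431), and Usp18 by 0.99 ± 0.18 (adjusted p = 0.00761). The slope was positive for 46 of 49 targets, against 44.4% of all genes.

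Over all 81 arrays, after removal of the diet means, the genes above the median level that followed Irf7 most closely by Pearson's r were Usp18 (0.870), Ifit1 (0.866), Lgals3bp (0.812), Oasl2 (0.810), Rtp4 (0.792), Cmpk2 (0.760), Ifih1 (0.758), Zbp1 (0.722), Irf9 (0.709) and Oas2 (0.701). At the negative end were Mhrt (-0.511), Myo18b, a myosin of striated muscle (-0.426), Tnik, a kinase (-0.398), Park7, an antioxidant chaperone (-0.398) and Ddx5, an RNA helicase (-0.387). These are descriptions over arrays that share strains and, for Irf7, the values that chose the groups.

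The difference between high and low Irf7 pools was also set against diet. The interaction of diet and group was called for 0 of 22179 genes (0%) in limma, with 1136 at an unadjusted p under 0.05. With 8 pools against 8, chow alone gave 9 called genes of 22179, and 6 of the 49 targets were among them. High fat alone gave 19 of 22179, with 8 of the 49 targets among them. All 8 high pools lay above all 8 low pools on both diets for 6 of the 22179 genes, Ifi27, Ifih1, Ifit1, Lgals3bp, Oasl2 and Usp18. Taking each diet by itself, this held for 17 of the 22179 genes on chow and for 20 on high fat. Across all 32 pools 4 genes had no overlap.

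The genes next to Irf7 in the RefSeq order gave no call. Of the 10 neighbours, 5 on each side, 9 were measured and none was called, against 0.365% of all genes called higher and 0.0135% lower. Their differences ran from -0.10 ± 0.07 for Phrf1 (adjusted p = 0.773) to 0.12 ± 0.08 for Rassf7 (adjusted p = 0.76), against the Irf7 difference of 1.18 that the choice of pools fixed.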

How the data were processed

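RNA of whole-heart pools was measured on 81 Affymetrix arrays. Each probe set has a score that the authors deposited, made with Affymetrix Expression Console per the submitters' processing notes. Which summarisation steps and genome build they used is not stated there. Over the 41345 probe sets of any array the scores average 8 with an SD of 2, a scaling that hides shifts shared by most genes. The plan assumed log-scale values, and the linear model was run on the score instead. The number of arrays limits the precision.

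Of the probe sets 23521 had 1 gene symbol, and the one with the highest mean was used for each of 22180 genes. Differences were fitted with limma 3.58.1 (lmFit, eBayes) in R 4.3.3, with diet as a term and Benjamini-Hochberg adjustment over all genes. Called means an adjusted p under 0.05. A gene's difference and SE come from this fit. Irf7 was tested by exact permutation in the other diet's pools. The scripts were tested on simulated data.

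Groups follow the labels for diet and strain and the Irf7 value for high or low. The members and the 28 gene lists (309 of 340 genes measured) were chosen with earlier results of these data known. Named are Irf7 and its neighbours, the 12 targets with the smallest p, up to 5 members of each other interferon list and 3 of a cell type list, the 12 largest differences above the median level, the 8 smallest p in the other-diet fit, and the closest correlations. Alternatives covered scaling, probe sets, level, variance model, array weights (statmod 1.5.0), strain as a block, group size, diet, tissue markers and each array left out. The macrophage covariate alone, the marker covariates for the targets' median and the removal of BXD63 were added after the data were seen.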

Additional observations from a re-analysis of the deposited data

Results flagged for a closer look

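Values far from the other pools of their group were searched in 23 genes with Dixon's criterion, in 92 groups of 8 pools, and 10 were found. Chance gives about 1 in 20. The genes were the 12 named targets, further members of the lists and Mhrt, chosen after the fits were seen.

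The BXD80 pool on chow, which had the highest Irf7 on that diet, was set apart from the other 7 high Irf7 pools on chow in 4 genes. Gbp7 had 11.4 units there and 10.3 in the next pool, and Ifi27 had 11.4 beside 10.7. Herc6 had 10.4 units beside 9.89, and Stat2 had 10.4 beside 10.01. Without this array 64 genes were called, and 21 targets. Among the high Irf7 pools on high fat, BXD50 was the lowest for Irf9 with 9.51 units, below the next pool at 10.1, and BXD49 was the highest for C1qc with 10.1 beside 9.66. Without BXD50 on high fat 124 genes were called.

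The other 4 were low values among the low Irf7 pools. Ifih1 had 9.05 units in BXD100 on high fat, beside 9.33 in the next pool, and Irgm2 had 9.55 in BXD84 on high fat, beside 10.2. On chow, Phf11b had 8.31 units in BXD48 beside 8.62, and Usp18 had 8.58 in BXD63 beside 8.92. BXD63 had the lowest Irf7 on both diets.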

How the results depend on the processing

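Of the 84 calls between high and low Irf7 pools, counts moved by over 1.5 times with 10 arrays at each end of each diet (167), with a slope on Irf7 over all arrays (233), on chow alone (9) and on high fat alone (19), where targets called were 6 and 8 with fewer arrays. They were 9, with 7 targets, both with atrial, adipocyte and macrophage marker means and with the macrophage mean alone as covariates. In the other diet's pools the 52 calls became 1 on chow alone (0 targets; 1353 genes at an unadjusted p under 0.05 in limma), 4 on high fat alone (3 targets), 5 with the macrophage mean (4 targets) and 30 without BXD63. Irf7 there was 0.72 on chow alone (adjusted p = 0.381) and 0.91 on high fat alone (adjusted p = 0.065) over all genes. The slope calls among pools in neither group were 13 after centring on the median. The cause of these shifts was not tested, also where fewer arrays entered. Leaving out each array gave 64 to 124 calls and 21 to 27 targets between the high and low pools, and 33 to 84 calls and 17 to 24 targets in the other diet's pools. With strain as a replicate block (random), 67 (66 higher, 1 lower) and 35 (35 higher, 0 lower) genes were called, 22 and 18 of them targets. For named genes called in a comparison, 676 alternative values kept direction and call and 226 kept direction but no longer passed, and with an array left out 1692 and 228, with no change of direction. Named genes not called were first included and then taken out of these counts. Among 2332 such values 16 changed direction, 11 for Ifngr1, 2 each for Ifnar1 and Il1b and 1 for Ccl2.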
